A study of Mus musculus with 9 samples.

Results

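The megakaryocyte and platelet genes Pf4, Ppbp, Itga2b, Gp1ba, Gp1bb, Gp9, Gp6, Vwf and Treml1 were read from RNA-seq counts of mouse mandibles. They were chosen by name, and all 9 were among the 27179 genes of the count table and passed the filter on low counts that left 16329 genes for testing. The libraries came from whole mandibles with the teeth of 6-month-old male mice on the C57BL/6 background, 5 of them WT and 4 labelled FcgRIIB-/-, with 1 library per mouse. FcgRIIB, encoded by Fcgr2b, is the inhibitory Fc gamma receptor, and mice that lack it develop a lupus-like disease. No cell type was isolated, so marrow, bone, tooth, muscle and vessels contributed RNA together, and fewer megakaryocytes cannot be told apart from less RNA in each of them. Depth ranged from 24158960 to 26787359 counts per library in WT and from 21453880 to 28991631 in mice labelled FcgRIIB-/-.

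The targeted gene did not follow the labels, as it was not lower in the libraries labelled FcgRIIB-/-. WT replicates 1 to 5 gave 577, 954, 442, 630 and 529 counts of Fcgr2b, and replicates 1 to 4 labelled FcgRIIB-/- gave 757, 562, 628 and 634. Its log2 fold change, here and below the libraries labelled FcgRIIB-/- over WT, was 0.21 (SE 0.20, adjusted p = 0.442, edgeR's quasi-likelihood test), and without WT replicate 2 it was 0.46 (adjusted p = 0.0131). Which exons were removed and which exons the reads came from cannot be read from counts per gene, and every direction below is between libraries by their labels.

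Megakaryocytes are very large marrow cells that bud off platelets, the small blood cells without a nucleus that plug damaged vessels. Platelets catch von Willebrand factor (Vwf) on the vessel wall through a complex built from Gp1ba, Gp1bb, Gp9 and Gp5. They sense collagen through Gp6, which signals through the Fc receptor gamma chain Fcer1g, and bind fibrinogen through the integrin made of Itga2b and Itgb3. Their alpha granules hold the chemokines Pf4 and Ppbp and the receptor Treml1, and in bone the marrow is where megakaryocytes mature. Vwf is also made by endothelial cells, a second well-known source of it in the jaw. Markers of the other tissues of a mandible were present in every library, among them Col1a1 of bone, Amelx of enamel-forming cells and Myh1 of muscle.

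All 9 genes were lower in the libraries labelled FcgRIIB-/-. Each passed edgeR's quasi-likelihood test at 0.05 after Benjamini-Hochberg adjustment over all tested genes, of which 19.3% were lower, 14.0% higher and 33.3% changed in either direction. For each of the 9, every WT mouse was also above every mouse labelled FcgRIIB-/-, a separation seen in 17.5% of all tested genes. Their median log2 fold change, -1.55, compares with 0.0055 over all tested genes. Together they made up 433 ± 41.9 (SD, n = 5) CPM in WT, against 182 ± 29.8 (SD, n = 4) CPM in the libraries labelled FcgRIIB-/-, or 42.1% of the WT level, where CPM is the count scaled to the TMM-normalized library size. The falls were unequal. Gp6, Gp1ba and Treml1 fell most, Itga2b, Gp9 and Ppbp came next, and Pf4, Vwf and Gp1bb fell least. The plot of CPM by library shows all 9 genes.

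**Figure D1:**
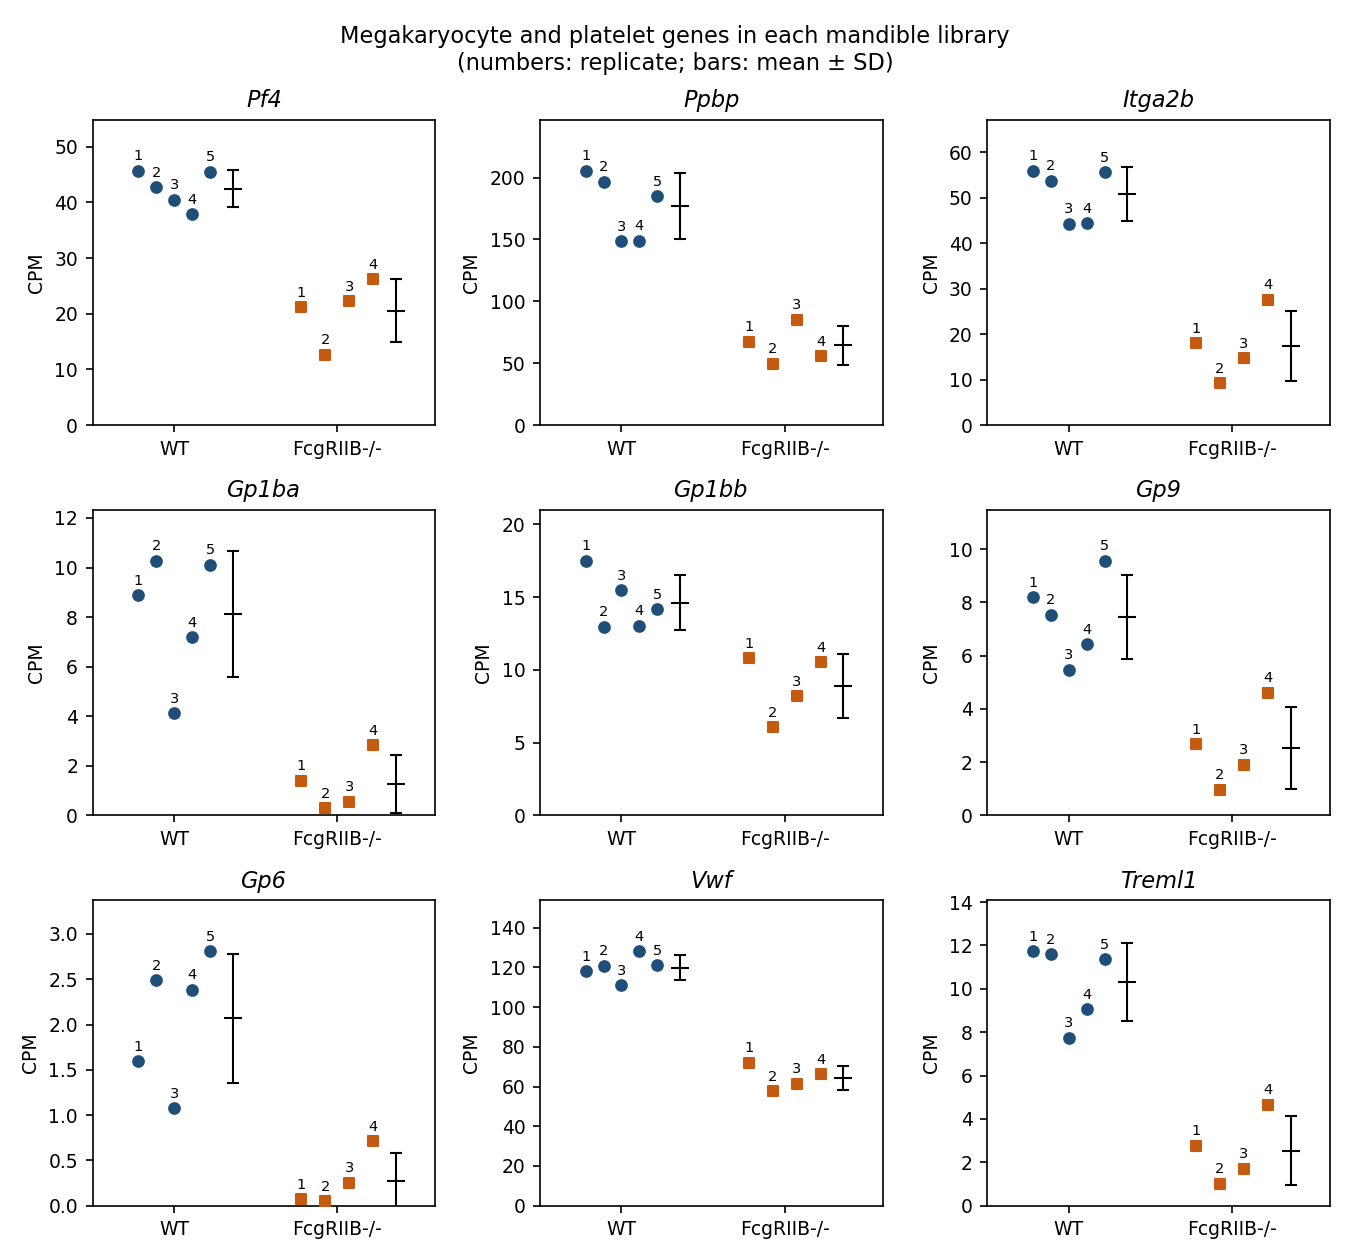
CPM (vertical axes, starting at 0) of the 9 megakaryocyte and platelet genes in each library, with WT as circles and libraries labelled FcgRIIB-/- as squares, replicate numbers beside the points, and bars for the mean ± SD, which are cut off at 0 for Gp6. In every panel all 5 WT libraries lie above all 4 libraries labelled FcgRIIB-/-, and replicate 2 labelled FcgRIIB-/- is the lowest point.

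Pf4 and Ppbp, the platelet chemokines, lie beside each other on chromosome 5 of GRCm38 (mm10), Ppbp from 90768518 to 90770063 and Pf4 from 90772435 to 90773383. Ppbp was at 206, 197, 149, 149 and 185 CPM in WT replicates 1 to 5 and at 67.4, 49.5, 85.1 and 55.6 CPM in replicates 1 to 4 labelled FcgRIIB-/-. Pf4 was at 45.7, 42.7, 40.4, 37.9 and 45.5 CPM in WT and at 21.2, 12.7, 22.3 and 26.2 CPM in the libraries labelled FcgRIIB-/-. The WT mice were thus close together in Pf4, and the lowest of them stood 1.45 times above the highest mouse labelled FcgRIIB-/-. The log2 fold change was -1.46 (SE 0.17, adjusted p = 3.52e-04 from edgeR) for Ppbp and -1.05 (SE 0.17, adjusted p = 0.00171) for Pf4. The order of the libraries was not the same in both genes, since replicate 4 labelled FcgRIIB-/- was the highest of its group in Pf4 and the second lowest in Ppbp.

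Itga2b, the alpha subunit of the fibrinogen receptor, spans bases 102453297 to 102469883 of chromosome 11. Its level was 56.0, 53.7, 44.3, 44.4 and 55.6 CPM in WT replicates 1 to 5 and 18.0, 9.24, 14.7 and 27.6 CPM in replicates 1 to 4 labelled FcgRIIB-/-. Replicate 4 labelled FcgRIIB-/- had 2.99 times the level of replicate 2, a wider spread than in WT, and the groups did not overlap. Itga2b fell by 1.55 on the log2 scale (SE 0.25, adjusted p = 0.00164 from edgeR), to 34.2% of the WT mean. Its partner Itgb3, which osteoclasts also carry, fell by 1.30 (SE 0.11, adjusted p = 9.5e-05), from 105 ± 14.5 (SD, n = 5) to 42.5 ± 4.87 (SD, n = 4) CPM.

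The subunits of the von Willebrand factor receptor fell by different amounts. Gp1ba (chromosome 11, 70639102 to 70643986), the subunit that binds the ligand, was at 8.88, 10.3, 4.13, 7.20 and 10.1 CPM in WT and at 1.40, 0.277, 0.551 and 2.84 CPM in replicates 1 to 4 labelled FcgRIIB-/-. Gp9 (chromosome 6, 87776131 to 87779786), a small subunit needed for the complex to reach the surface, was at 8.19, 7.54, 5.47, 6.42 and 9.57 CPM in WT and at 2.66, 0.971, 1.91 and 4.61 CPM in the libraries labelled FcgRIIB-/-. Gp1bb (chromosome 16, 18620319 to 18622403), which is bonded to Gp1ba, was at 17.5, 12.96, 15.5, 13.03 and 14.2 CPM in WT and at 10.8, 6.05, 8.18 and 10.5 CPM in the libraries labelled FcgRIIB-/-. None of the 3 overlapped between the groups, but for Gp9 and Gp1bb the lowest WT mouse was only 1.19 and 1.2 times above the highest mouse labelled FcgRIIB-/-. The log2 fold changes from edgeR were -2.69 (SE 0.52, adjusted p = 0.00384) for Gp1ba, -1.56 (SE 0.36, adjusted p = 0.00818) for Gp9 and -0.72 (SE 0.17, adjusted p = 0.00984) for Gp1bb. Without replicate 4 labelled FcgRIIB-/- that of Gp1ba was -3.39. Gp5, the last subunit of the complex, fell by 2.34 (SE 0.42, adjusted p = 0.00283), from 12.3 ± 2.43 (SD, n = 5) to 2.43 ± 1.53 (SD, n = 4) CPM. The count of Gp1bb is uncertain, because its exons overlap those of Sept5 and of the gene model Gm49601 on the same strand. Sept5, a septin of the cytoskeleton, was the more abundant of both at 63.0 CPM in WT and 47.7 CPM in the libraries labelled FcgRIIB-/-, with a log2 fold change of -0.40 (SE 0.12, adjusted p = 0.0274 from edgeR). It did not pass without WT replicate 1 or without replicate 1, 3 or 4 labelled FcgRIIB-/- (adjusted p between 0.0553 and 0.0720).

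Gp6 and Treml1 were among the genes with the largest falls. Gp6, the collagen receptor (chromosome 7, 4362853 to 4397851), rested on few reads, since WT replicates 1 to 5 had 44, 62, 28, 65 and 72 and replicates 1 to 4 labelled FcgRIIB-/- had 2, 1, 6 and 14. Over all libraries of a group this was 271 counts in WT and 23 counts in the libraries labelled FcgRIIB-/-, a rate of 11.9% of that in WT (exact 95% interval 7.43% to 18.3%, for counting error only). Its log2 fold change was -3.00 (SE 0.59, adjusted p = 0.00397 from edgeR), and -4.025 without replicate 4 labelled FcgRIIB-/-. Fcer1g, the chain through which Gp6 signals and which myeloid cells and mast cells use as well, fell by 1.04 (SE 0.18, adjusted p = 0.00235). Treml1, a receptor of alpha granules (chromosome 17, 48359916 to 48367176), was at 11.7, 11.6, 7.75, 9.07 and 11.4 CPM in WT and at 2.77, 1.02, 1.70 and 4.66 CPM in replicates 1 to 4 labelled FcgRIIB-/-. Even its highest value in the libraries labelled FcgRIIB-/- was below every WT mouse, and it fell by 2.03 (SE 0.35, adjusted p = 0.00232 from edgeR).

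Vwf, the ligand of the Gp1ba complex (chromosome 6, 125552948 to 125686679), had the smallest spread of the 9 genes. It was at 118, 121, 111, 128 and 121 CPM in WT replicates 1 to 5 and at 72.0, 57.7, 61.4 and 66.1 CPM in replicates 1 to 4 labelled FcgRIIB-/-. The coefficient of variation was 5.14% in WT and 9.61% in the libraries labelled FcgRIIB-/-, against 7.90% and 27.6% for Pf4 and 34.4% and 114% for Gp6. Vwf fell by 0.90 (SE 0.075, adjusted p = 8.21e-05 from edgeR), to 53.6% of the WT mean. The endothelial genes measured beside it were not lower in sum, though single genes differed. Of 15 endothelial markers, 2 were lower, 3 were higher and 10 did not pass, with a median log2 fold change of 0.12. Over all tested genes 19.3% were lower and 14.0% higher, so that no difference from other genes is read from this count. Their summed level was 947 ± 42.2 (SD, n = 5) CPM in WT, against 1003 ± 55.2 (SD, n = 4) CPM in the libraries labelled FcgRIIB-/-, and none of the 15 was at 0 in any library. Cdh5, the cadherin of endothelial junctions, had a log2 fold change of 0.12 (SE 0.083, adjusted p = 0.275), and Pecam1, the most abundant of the list, one of 0.17 (SE 0.088, adjusted p = 0.168). Plvap, of fenestrated vessels, had one of -0.13 (SE 0.056, adjusted p = 0.0885), and passed with library totals only (-0.21, adjusted p = 0.0276). Egfl7, Robo4 and Esam rose by 0.51, 0.43 and 0.50. Stab2, a scavenger receptor of sinusoidal endothelium, fell by 2.42 (SE 0.33, adjusted p = 7.65e-04), and Ptprb, named here after its value was seen, fell by 0.41. Which cells lost Vwf reads was not tested.

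Levels of different genes were compared per kilobase of exon, from the mean CPM and the union of exons in GENCODE M21. In WT, Ppbp was highest at 163 ± 24.7 (SD, n = 5) CPM per kb, followed by Pf4 at 58.9 ± 4.66. Itga2b, Gp9, Vwf, Treml1 and Gp1bb followed at 9.31 ± 1.09, 8.44 ± 1.79, 7.46 ± 0.384, 7.35 ± 1.28 and 7.01 ± 0.911 CPM per kb, and neighbours in this part of the order lay within their spread. Gp1ba at 2.99 ± 0.938 and Gp6 at 0.351 ± 0.121 were lowest. In the libraries labelled FcgRIIB-/-, Ppbp at 59.5 ± 14.5 (SD, n = 4) and Pf4 at 28.5 ± 7.89 CPM per kb were again at the top and Gp1ba at 0.466 ± 0.424 and Gp6 at 0.0458 ± 0.0521 at the bottom. Between them, Gp1bb at 4.26 ± 1.07 and Vwf at 4.0 ± 0.385 now had higher means than Itga2b at 3.19 ± 1.42, Gp9 at 2.88 ± 1.76 and Treml1 at 1.81 ± 1.13, and neighbours again lay within their spread. The place of Gp1bb in both orders carries the uncertainty of its exon overlap with Sept5.

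Among the mice labelled FcgRIIB-/-, replicate 2 had the lowest level of all 9 libraries in each of the 9 genes. Over all tested genes this library was the lowest of the 9 in 8.68%, and over the 3144 genes called lower it was the lowest in 629, where replicate 4 was the lowest in 1304. Replicate 4 was in turn the highest of its group in 6 of the 9 genes, the others being Ppbp, Gp1bb and Vwf. Within WT, replicate 3 was lowest in 7 of the 9 genes, with Pf4 and Gp1bb as the exceptions. Without replicate 2 labelled FcgRIIB-/- all 9 genes were still called lower, and the same held when any other mouse was left out.

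Ratios within a library do not depend on how library sizes are scaled, apart from the small count added before the logarithm, and 10 of them were compared between the groups on log2 CPM with a two-sided exact permutation test over all 126 splits of the mice. The smallest p this design gives is 0.0159, and p-values were adjusted over the 10 ratios. Relative to Gp9, the log2 ratio of Gp1ba was lower by 1.28 in the libraries labelled FcgRIIB-/- (0.079 ± 0.304 in WT, -1.20 ± 0.482, SD, adjusted p = 0.0265, exact permutation), and no mouse of either group overlapped. Gp5 was lower relative to Gp9 by 0.94 and Treml1 by 0.48, each at the same adjusted p and without overlap. The ratio of Gp6 to Gp9 was lower by 1.24, a value that rests on the few Gp6 counts and was 0.78 or 1.68 when the count added before the logarithm was 5 or 0.5 in place of 2. In the opposite direction, Gp1bb was higher relative to Gp9 by 0.96, with the groups overlapping (adjusted p = 0.0454, exact permutation). It did not pass without any 1 of WT replicates 1, 2, 4 or 5 (adjusted p between 0.0714 and 0.0816, exact permutation) or of replicates 1 to 3 labelled FcgRIIB-/- (between 0.0893 and 0.102). The count of Gp1bb is uncertain for its exon overlap with Sept5, and the part of that overlap in the ratio was not tested. The groups did not overlap in the other 6 ratios that passed, and leaving out a mouse could not have made them overlap. With 3 mice labelled FcgRIIB-/- the smallest p is 0.0357 before adjustment, and the 6 ratios at this limit had an adjusted p of 0.0595 without replicate 1, 2 or 3 (exact permutation), which says nothing about their stability.

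Pf4 was higher relative to Itga2b by 0.56 in the libraries labelled FcgRIIB-/- (adjusted p = 0.0265, exact permutation, no overlap). The ratio of Ppbp to Pf4 had a mean difference of -0.39 and did not pass (adjusted p = 0.0705, exact permutation). Without WT replicate 3 this ratio passed, at -0.43 (adjusted p = 0.0357, exact permutation). In this ratio replicate 4 labelled FcgRIIB-/- stood at 1.09, where its group otherwise lay between 1.67 and 1.96 and WT between 1.88 and 2.20. The ratio of Itgb3 to Itga2b (difference 0.35) and that of Vwf to Itga2b (difference 0.74) did not pass either, at adjusted p of 0.191 and 0.0595 from the exact permutation test. In both, replicate 4, the library with the most Itga2b in its group, had the lowest ratio of the mice labelled FcgRIIB-/-, and without it both passed (adjusted p = 0.0397, exact permutation). Relative to Cdh5, Vwf was lower by 1.02, from 0.23 ± 0.082 (SD, n = 5) to -0.79 ± 0.038 (SD, n = 4) on the log2 scale (adjusted p = 0.0265, exact permutation). All 4 mice labelled FcgRIIB-/- lay between -0.83 and -0.74 in it, the smallest SD of the 10 ratios in that group, and the WT mice lay between 0.15 and 0.36, as the plot of ratios shows.

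**Figure D2:**
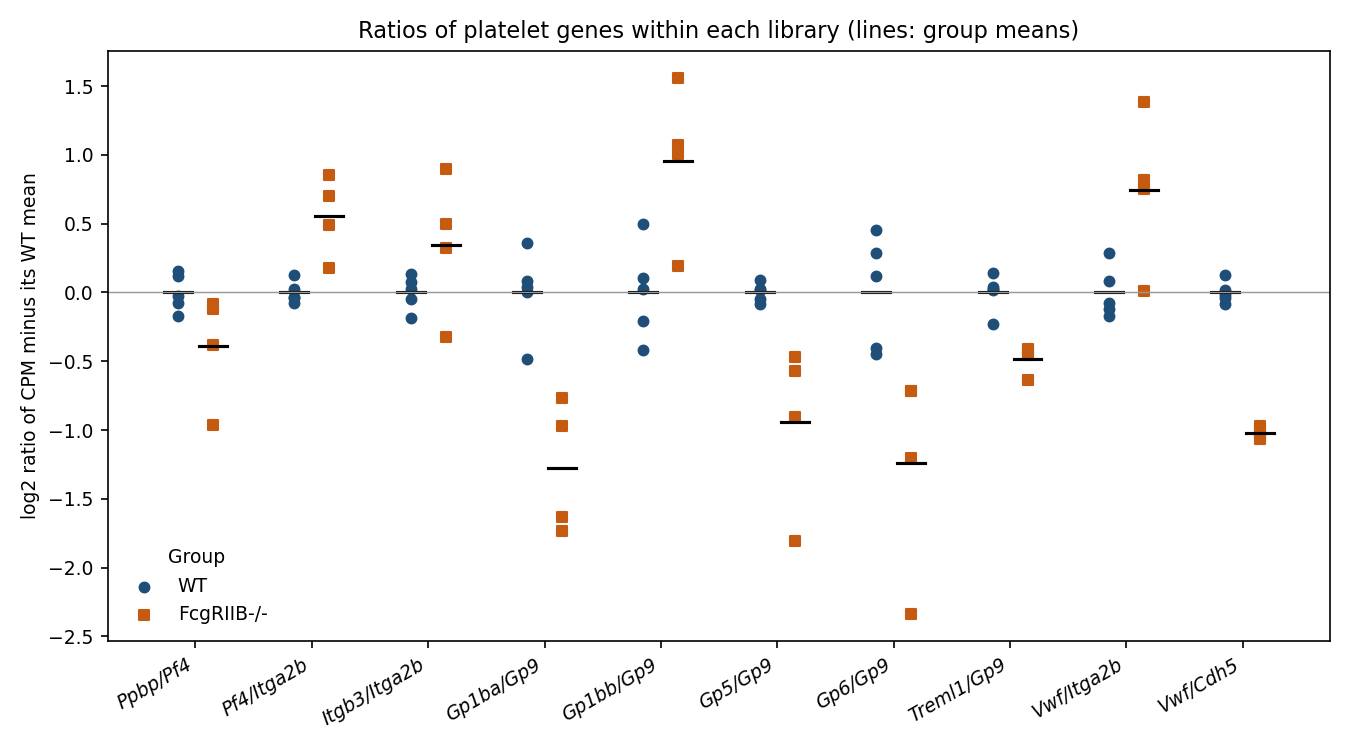
Log2 ratio of CPM of 10 gene pairs in each library, shown as the difference from the WT mean (vertical axis), with WT as circles, libraries labelled FcgRIIB-/- as squares and lines for group means. The 4 libraries labelled FcgRIIB-/- lie near -1.02 for Vwf/Cdh5 with almost no spread, and they spread widely for Gp1ba/Gp9, Gp5/Gp9 and Gp6/Gp9.

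The promoters of the genes that fell together were searched for short motifs of factors known to act in megakaryocytes. Of the 9 genes, 8 had a RefSeq promoter window of 300 bases, from 250 before to 50 after a start site (GRCm38.p6). That site is the start of the gene span given above in 5 of the 8, and lies inside the span by 20 bases in Gp1ba, 107 bases in Gp6 and 1939 bases in Gp9. Searched on both strands were AGATAA and TGATAA for GATA factors, AGGAAG and CGGAAG for ETS factors such as Fli1, and TGTGGT for RUNX factors. The GATA letters were in 3 of the 8 windows (Gp1ba, Gp6 and Pf4) and in 18.6% of all 32851 windows. The ETS letters were in 5 of the 8 (Gp1ba, Gp1bb, Gp9, Itga2b and Pf4) and in 46.5% of all, and the RUNX letters in 1 of the 8 (Gp9) and in 16.8% of all. Both GATA and ETS letters were in Gp1ba and Pf4 and in 7.70% of all windows. With so few windows these shares are a description, and a match is not a bound site. Gp1ba and Pf4 are shown because they hold both motifs, Itga2b for its pair of ETS matches and Gp6, the gene with the largest fall, for its GATA match. They are written 5′ to 3′ on the strand of the gene, with the GATA and ETS letters, read on either strand, in capitals. The window of Gp1ba is chr11:70638872-70639171 (plus strand), that of Pf4 chr5:90772185-90772484 (plus strand), that of Itga2b chr11:102469834-102470133 (minus strand) and that of Gp6 chr7:4397695-4397994 (minus strand).
Gp1ba: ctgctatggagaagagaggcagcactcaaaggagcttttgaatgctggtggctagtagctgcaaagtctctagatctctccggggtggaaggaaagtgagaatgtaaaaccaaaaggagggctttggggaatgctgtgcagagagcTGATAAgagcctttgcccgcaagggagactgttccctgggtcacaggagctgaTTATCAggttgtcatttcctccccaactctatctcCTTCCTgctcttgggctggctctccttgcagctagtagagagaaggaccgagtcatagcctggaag
Pf4: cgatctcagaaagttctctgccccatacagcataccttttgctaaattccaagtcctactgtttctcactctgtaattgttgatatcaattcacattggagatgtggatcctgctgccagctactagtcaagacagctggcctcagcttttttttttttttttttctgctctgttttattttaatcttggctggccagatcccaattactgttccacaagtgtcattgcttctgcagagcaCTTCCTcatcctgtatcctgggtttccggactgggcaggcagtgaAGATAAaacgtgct
Itga2b: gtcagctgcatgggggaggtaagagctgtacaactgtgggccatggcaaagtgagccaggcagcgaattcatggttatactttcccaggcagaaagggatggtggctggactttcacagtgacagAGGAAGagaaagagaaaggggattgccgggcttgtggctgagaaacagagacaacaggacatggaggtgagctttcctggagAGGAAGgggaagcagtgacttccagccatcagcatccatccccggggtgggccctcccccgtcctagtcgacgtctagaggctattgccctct
Gp6: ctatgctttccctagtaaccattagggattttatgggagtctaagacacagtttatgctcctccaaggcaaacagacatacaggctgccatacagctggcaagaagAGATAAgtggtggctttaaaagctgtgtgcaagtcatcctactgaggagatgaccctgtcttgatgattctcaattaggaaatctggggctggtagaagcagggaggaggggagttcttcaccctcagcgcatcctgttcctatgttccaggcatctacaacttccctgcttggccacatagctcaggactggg
Distances are from the start site of each window. In Gp1ba the GATA matches begin 104 and 51 bases before this site and the ETS match begins 16 bases before it. In Pf4 the ETS match begins 9 bases before the site and the GATA match at base 37 after it, counting the site as 1. The ETS matches of Itga2b begin 125 and 43 bases before the site, and the GATA match of Gp6 begins 144 bases before. No matches overlapped one another in these windows.

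Most other genes of the platelet were lower as well. Of 53 further genes chosen for roles in megakaryocytes and platelets, 52 were in the table and all of these were tested. Of the 52, 36 were lower, 3 were higher and 13 did not pass in edgeR's test, with a median log2 fold change of -0.88. Over all tested genes 19.3% were lower and 14.0% higher, the shares beside which this count and those by role below stand. Many of these genes are shared with other cells, and the summed level of the list was 6588 ± 336 (SD, n = 5) CPM in WT, against 6419 ± 259 (SD, n = 4) CPM in the libraries labelled FcgRIIB-/-, led by the broadly made Clu. Replicate 2 labelled FcgRIIB-/- was the lowest of all 9 libraries in 22 of the 52.

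Of 14 receptors, 9 were lower and 5 did not pass. Beside Gp5 and Itgb3, Clec1b, the platelet receptor of podoplanin, fell by 1.54, and Mpig6b, an inhibitory receptor of megakaryocytes, by 1.52. Those that did not pass were Itga2 (log2 fold change -0.36), Tbxa2r (-0.46), F2rl2 (-0.50), Pear1 (-0.0009) and Cd9 (0.18), of which Itga2, Pear1 and Cd9 are made by many cell types. F2rl2 passed also with library totals only and with DESeq2 (adjusted p = 0.0264 and 0.0365). Itga2 passed without replicate 2 labelled FcgRIIB-/-, Tbxa2r and F2rl2 without replicate 4, and Cd9, as a rise, without WT replicate 5 (adjusted p = 0.00447, 0.0316, 0.0161 and 0.0344 from edgeR).

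Of 9 granule genes, 5 were lower, with the largest fall in the coagulation factor F5, at -1.96 (SE 0.29, adjusted p = 0.00113 from edgeR). Clu, a secreted chaperone, was higher by 0.77 (SE 0.19, adjusted p = 0.0105), and Thbs1 (-0.08), Selp (-0.01) and Vps33b (-0.08) did not pass. Selp is stored with Vwf in endothelial cells and platelets. Of 14 signaling genes, 12 were lower, led by Rgs18, a regulator of G protein signaling in platelets, at -2.102, while Prkcq (0.03) and Gng11 (0.15) did not pass. Among 6 cytoskeleton genes 4 were lower. Tubb1, the tubulin of the platelet marginal band, fell by 3.08 (SE 0.25, adjusted p = 7.65e-05), from 13.5 ± 3.72 (SD, n = 5) to 1.58 ± 0.393 (SD, n = 4) CPM, while the widely expressed Myl9 (-0.27) and Tpm4 (-0.18) did not pass.

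Of 9 regulators, which are transcription factors, their cofactor and the growth factor Thpo, 6 were lower, 2 were higher and 1 did not pass, with a median log2 fold change of -1.55. Gata1 and Gfi1b, which act in erythroid cells and megakaryocytes, had the largest falls of the list, at -3.76 (SE 0.48, adjusted p = 6.15e-04 from edgeR) and -3.78 (SE 0.52, adjusted p = 8.33e-04). Without replicate 4 labelled FcgRIIB-/- that of Gfi1b was -4.79. Gata1 was at 12.02 ± 1.78 (SD, n = 5) CPM in WT, against 0.901 ± 0.752 (SD, n = 4) CPM in the libraries labelled FcgRIIB-/-, where it had between 1 and 36 counts. Nfe2, needed for platelet release, fell by 3.04 (SE 0.25, adjusted p = 7.65e-05), and Zfpm1, the cofactor of Gata1, by 1.55. Fli1, an ETS factor that endothelial cells use too, fell by only 0.37 (SE 0.097, adjusted p = 0.0159), with overlap between the groups. Runx1 was higher by 0.44 (SE 0.14, adjusted p = 0.0313) and Mef2c did not pass (0.01). Thpo, the main growth factor of megakaryocytes, was low at 2.53 ± 0.751 (SD, n = 5) CPM in WT and higher by 0.97 in the libraries labelled FcgRIIB-/- (SE 0.28, adjusted p = 0.0227), at 4.98 ± 1.62 (SD, n = 4) CPM. The rise of Thpo did not pass without replicate 2 or replicate 4 labelled FcgRIIB-/- (adjusted p = 0.0512 and 0.0702 from edgeR), and that of Runx1 did not pass without WT replicate 1 or without replicate 2 or 3 labelled FcgRIIB-/- (adjusted p between 0.0513 and 0.0911), nor with library totals only (adjusted p = 0.0859). With the replicate number as a block, the fall of Fli1 and the rise of Thpo did not pass (adjusted p = 0.0740 and 0.0700 from edgeR).

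**Figure D3:**
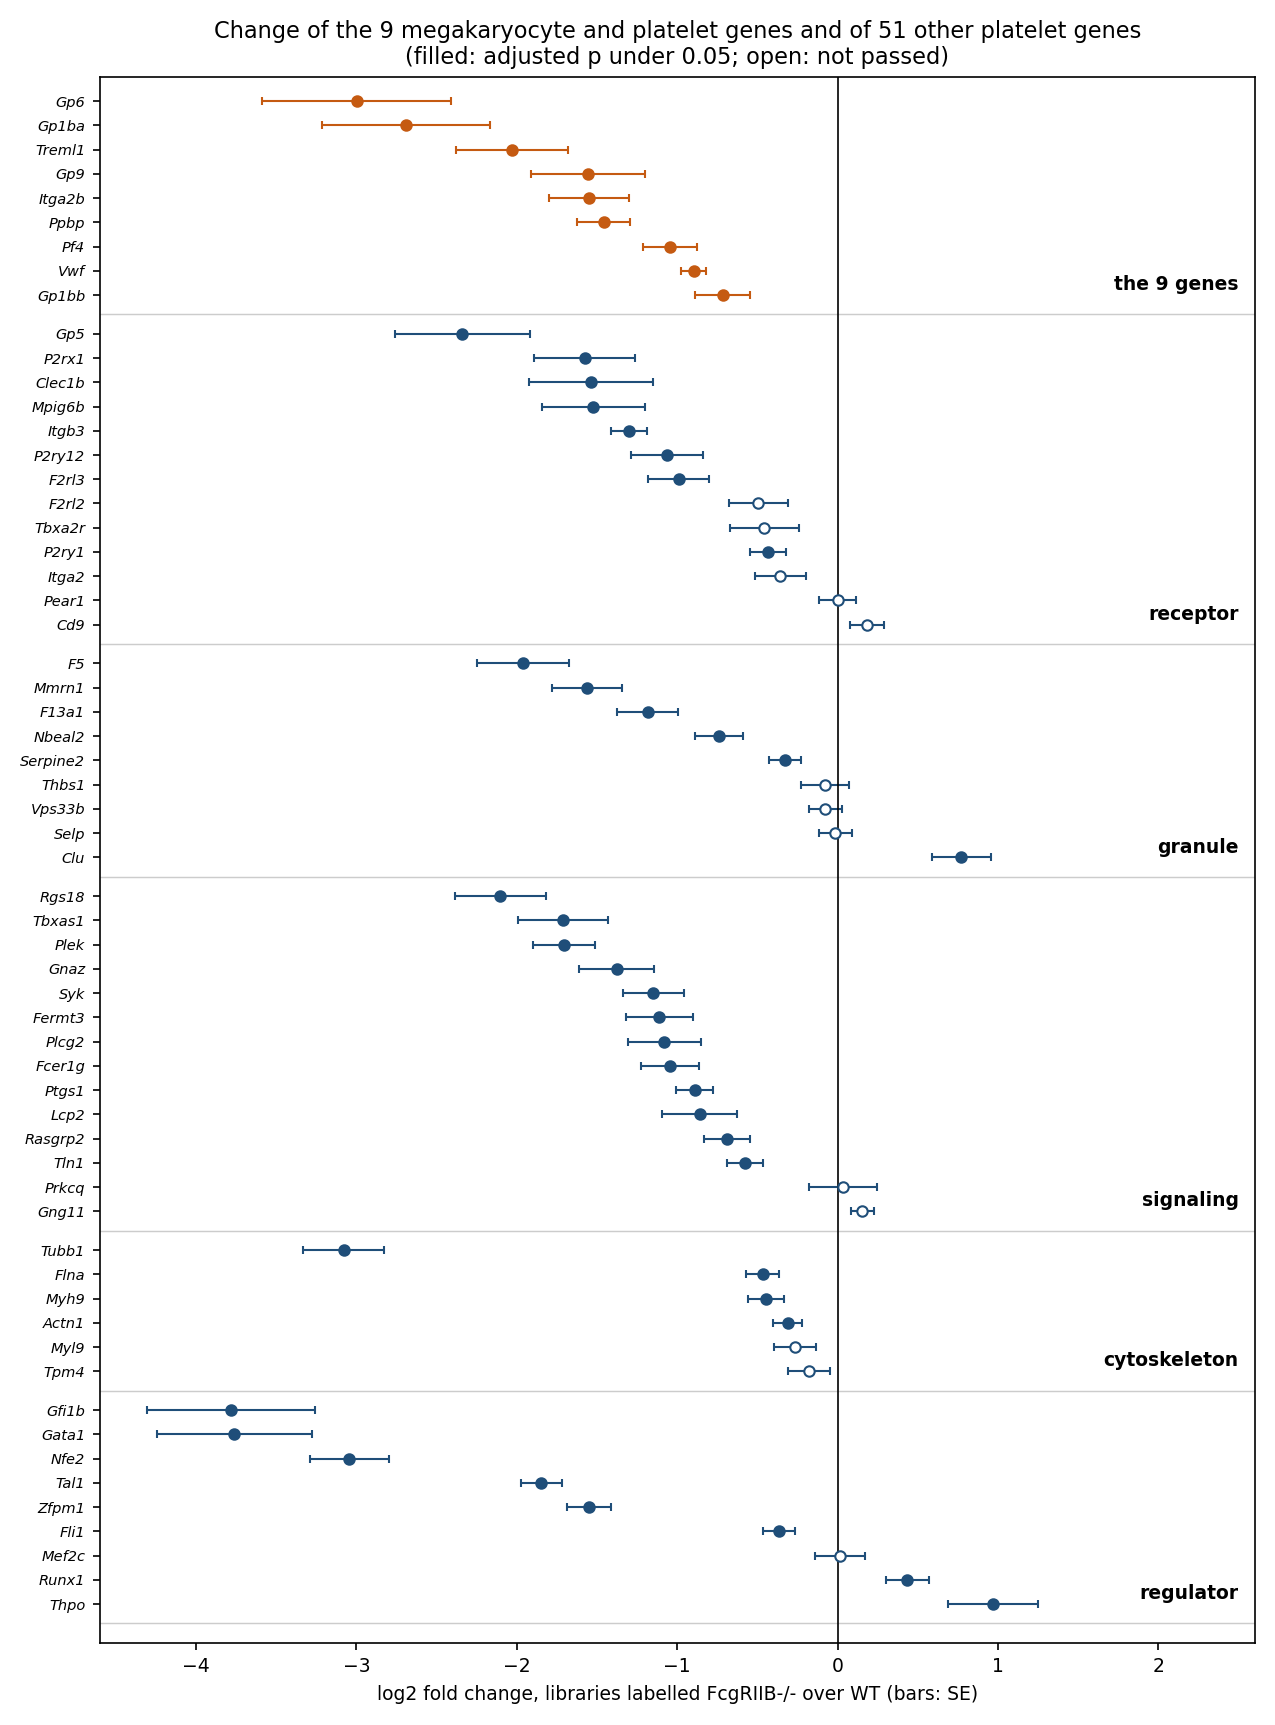
Log2 fold change, libraries labelled FcgRIIB-/- over WT (horizontal axis), of the 9 megakaryocyte and platelet genes and of 51 other platelet genes grouped by role, with bars for the SE and filled points for genes past the 0.05 threshold of edgeR's test. All 9 genes lie left of 0, from -3.00 for Gp6 to -0.72 for Gp1bb, and the rises are those of Clu, Runx1 and Thpo.

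Markers of other marrow cells moved with the platelet genes. Beside each count of a marker list below stand the shares over all tested genes, 19.3% lower and 14.0% higher. All 10 erythroid genes in the table were lower, with a median log2 fold change of -4.05, and their summed level was 641 ± 109 (SD, n = 5) CPM in WT, against 77.8 ± 25.9 (SD, n = 4) CPM in the libraries labelled FcgRIIB-/-. Slc4a1, the anion exchanger of red cells, was the most abundant, and Hemgn had the largest fall, at -4.84. By library, the erythroid sum was 67.7, 57.3, 70.5 and 116 CPM in replicates 1 to 4 labelled FcgRIIB-/-, lowest in replicate 2 and highest in replicate 4. Rhag was the erythroid gene with 0 counts in a library. All 12 neutrophil genes were lower, with a median of -3.13 and a sum of 1996 ± 958 (SD, n = 5) against 283 ± 152 (SD, n = 4) CPM. S100a9 was the most abundant of them and Ngp had the largest fall, at -4.48, or -5.33 without replicate 1 labelled FcgRIIB-/-. This sum was 439, 146, 389 and 159 CPM in replicates 1 to 4 labelled FcgRIIB-/-, so that it was low in replicate 4 as well as in replicate 2. The erythroid and neutrophil sums were thus 12.1% and 14.2% of WT, where the sum of the 9 platelet genes was 42.1%. The platelet value is led by Ppbp and Vwf, which made up 177 and 120 of the 433 CPM in WT. These genes were at 36.4% and 53.6% of WT. Among the others, Gp1ba and Treml1 were at 15.6% and 24.6%, and Pf4 and Gp1bb at 48.5% and 60.8%. The median log2 fold change of the 9 was -1.55, against -4.05 for the erythroid and -3.13 for the neutrophil genes. The erythroid value depends on Sptb, the gene of that list with the smallest fall. At 45.9% of WT, Sptb made up 41.1 of the 77.8 CPM in the libraries labelled FcgRIIB-/-, where Slc4a1 was at 4.04% of WT.

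Of 11 B-lineage genes 9 were lower, with a median of -2.14 and the largest fall in Rag1 (-3.29), but the most abundant, Blnk, did not pass (0.36). As a rise, Blnk passed without WT replicate 2 (adjusted p = 0.00402 from edgeR), with RLE size factors, with DESeq2 and at 10 counts in every library (adjusted p between 0.0293 and 0.0464). Of 10 tested macrophage genes, a cell type that also makes Pf4, 5 were lower and 5 did not pass, with a median of -0.62, the most abundant gene Csf1r at -0.86 and the largest fall in Siglec1 (-1.03). Mast cell genes were lower in 6 of 7 tested, with a median of -1.52, and Fcer1a, with 1 or 2 counts in each library labelled FcgRIIB-/-, fell most (-3.75), while the most abundant, Kit, did not pass (-0.07). Lists for tissues outside the marrow were counted in the same way, beside the 19.3% lower and 14.0% higher over all tested genes. For the short osteoblast list no difference from other genes is read from the count. Of 8 osteoblast genes 3 were lower and 5 did not pass, among them Col1a1, the most abundant (0.06), and the largest fall was that of Ibsp (-0.64), which did not pass when WT replicate 2, 3 or 5 or any mouse labelled FcgRIIB-/- was left out (adjusted p between 0.0503 and 0.110 from edgeR). Of 6 tooth genes 4 were higher, led by Amelx (1.34), and their sum was 22140 ± 7464 (SD, n = 5) CPM in WT, against 45380 ± 9511 (SD, n = 4) CPM in the libraries labelled FcgRIIB-/-. Of 8 muscle genes 5 were higher, with the largest rise in Tnnt3 (1.15) and no pass for the most abundant, Myh1 (0.64). Without replicate 1 or 4 labelled FcgRIIB-/- 3 of the 8 muscle genes were called higher. Myh1 passed without WT replicate 1 or replicate 2 labelled FcgRIIB-/- (adjusted p = 0.0287 and 0.0491 from edgeR) and with DESeq2 (adjusted p = 0.0177). The muscle sum was 11370 ± 3278 (SD, n = 5) against 20440 ± 5929 (SD, n = 4) CPM. The part that these shifts in tissue content had in the fall of the platelet genes was not tested, and marrow content and genotype cannot be told apart in these libraries.

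**Figure D4:**
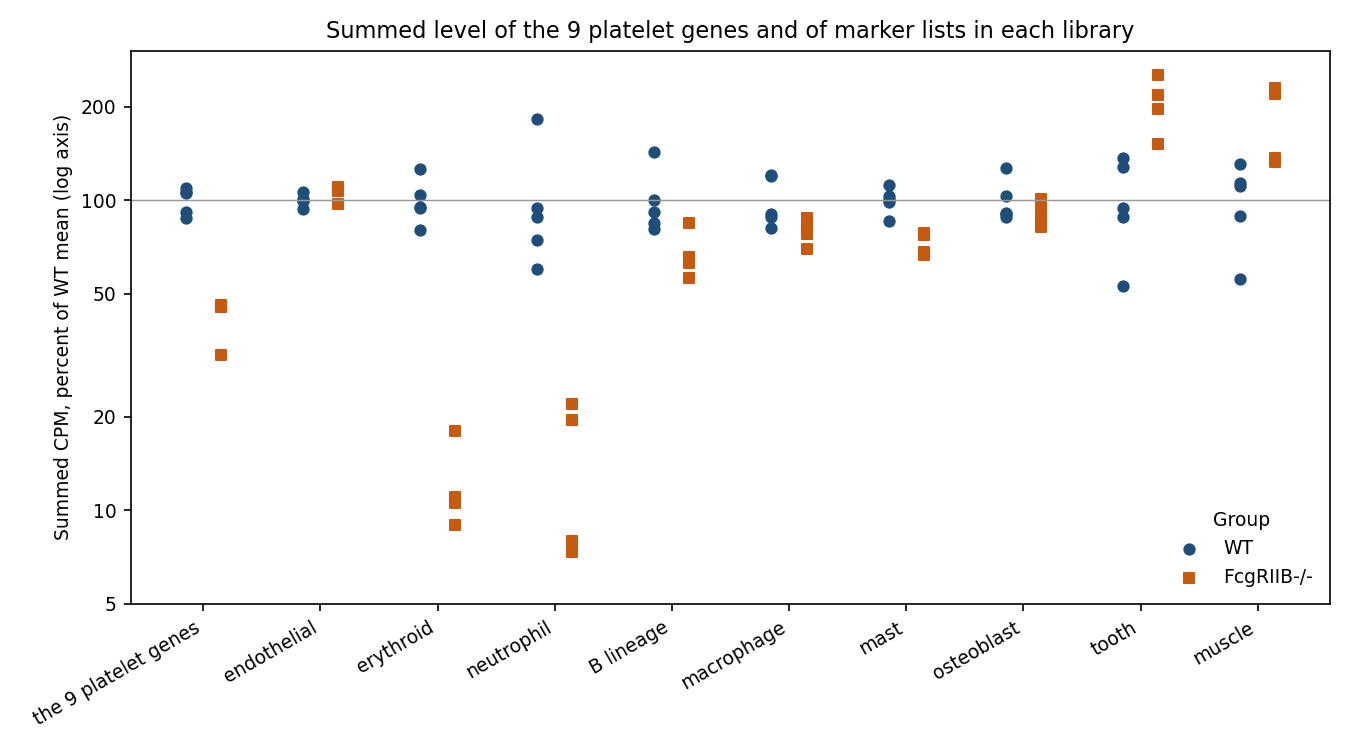
Summed CPM of the 9 platelet genes and of each marker list in every library, as a percent of the WT mean of that list (log axis), with WT as circles and libraries labelled FcgRIIB-/- as squares. The 9 platelet genes lie at 42.1% of WT on average, erythroid and neutrophil genes at 12.1% and 14.2%, endothelial genes at 106%, and tooth and muscle genes at 205% and 180%.

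The genes nearest to the 9 in their pattern over the libraries were found by the root mean square difference of log2 CPM after each gene was centred on its own mean, over the 9 libraries and 14108 genes whose mean reached 1 log2 CPM. The centred mean of the platelet genes other than Vwf was 0.95, 0.95, 0.46, 0.70 and 1.03 in WT replicates 1 to 5 and -0.90, -1.90, -1.09 and -0.21 in replicates 1 to 4 labelled FcgRIIB-/-. The nearest gene was Mpig6b, at a difference of 0.137, and the others were Mfsd2b, Gcsam, Tspan32 and Lrmp, at 0.165 to 0.200. Mpig6b was also on the list of platelet receptors. Vwf had other neighbours, namely Adcy5, Asb1, Lepr, Triqk and Fech, at differences of 0.101 to 0.126. Their log2 fold changes lay between -2.02 and -0.75, a direction that the choice by pattern fixes. Fech is the last enzyme of heme synthesis and Lepr the leptin receptor.

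The genes next to the platelet genes on the chromosomes were taken, after the values of the 9 were known, as the nearest tested gene on each side and any overlapping one. Of 17 such neighbours, 4 were lower, 1 was higher and 12 did not pass in edgeR's test, where 19.3% of all tested genes were lower and 14.0% higher, so that no difference from other genes is read from the count. Cxcl5 and Cxcl3, chemokine genes on either side of Ppbp and Pf4, had log2 fold changes of -0.50 (SE 0.35) and -0.24 (SE 0.33). Slc25a11, a mitochondrial carrier that begins 0.033 kb from the end of Gp1ba, had one of 0.13 (SE 0.092). The lower ones were Sept5 beside Gp1bb, Rab43 (-0.70) beside Gp9, Rdh13 (-0.26, not past the test without WT replicate 1, adjusted p = 0.0554) beside Gp6 and Ano2 (-1.001) beside Vwf, and the higher one was Tbx1 (0.51) beside Gp1bb. With the replicate number as a block, Rdh13 and Ano2 did not pass (adjusted p = 0.0792 and 0.0924 from edgeR).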

How the data were processed

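Poly(A) RNA of whole mandibles was sequenced from 5 WT mice and 4 mice labelled FcgRIIB-/-. Per the submitters' processing notes, the authors used Trim Galore, HISAT 02.1.0 with the mm10 genome and featureCounts, and deposited raw counts per gene. The gene annotation, the strand setting and the handling of reads on overlapping genes are not given in the sources used here. The table held 1 further column of values that matches no sample here and was not used. Groups and replicate numbers came from the sample titles.

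Counts were compared in R 4.3.3 with edgeR 4.0.16, using filterByExpr (minimum count 10), TMM normalization and the quasi-likelihood test over all 16329 tested genes with Benjamini-Hochberg adjustment at 0.05. Each SE was obtained by dividing the size of the log2 fold change by the root of its F. A prior count of 2 went into log2 CPM. DESeq2 1.42.0 was an alternative, and others are given in the closing section. The megakaryocyte and platelet genes, the other lists and the ratios were chosen with earlier results of these data known. The genes named were the 9, Fcgr2b, partners and regulators of the 9, in each role the largest rise, the largest fall and those that did not pass, in each marker list the most abundant gene and the largest change, the endothelial genes Cdh5, Pecam1, Plvap and Stab2 with those that rose, and the 5 nearest in pattern. The values of 1 listed gene that entered the counts are not reported here. Bin2 and, of the erythroid list, Ahsp and Hbb-bt were not matched in the table. No pair of libraries within a group had counts close enough to come from 1 and the same library (chi-square test). The fits were tested on simulated data first. Gene spans and promoter sequences are those of RefSeq (GRCm38.p6), and exon lengths and exon overlaps those of GENCODE M21 (GRCm38). Depth limits the genes with few reads, above all Gp6. The p-values of edgeR and DESeq2 set each group difference against the spread between these mice. Those of the permutation test set it against the splits of the mice.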

Additional observations from a re-analysis of the deposited data

Results flagged for a closer look

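Among 198 groups of libraries examined for 1 library far from the rest, 9 held such a library, and chance alone gives about 1 in 20. The summed level of the 9 platelet genes was 137.5 CPM in replicate 2 labelled FcgRIIB-/-, far below the other libraries of its group, which had between 196 and 199 CPM. Rgs18 was also lowest in that group's replicate 2, at 0.55 log2 CPM. Fcgr2b was highest in its group in replicate 4 labelled FcgRIIB-/-, at 5.01 log2 CPM. Fli1 stood apart in replicate 3 labelled FcgRIIB-/-, the highest of its group at 4.64 log2 CPM, and Plvap in replicate 2, the lowest at 6.225 log2 CPM. Among WT, replicate 3 was far below the others in Myl9, at 6.94 log2 CPM, and replicate 5 in Egfl7, at 5.65 log2 CPM. Siglec1 was highest in WT replicate 5, at 3.555 log2 CPM. The summed level of neutrophil genes was 3641 CPM in WT replicate 5, with the rest of WT at 1199 to 1889 CPM.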

How the results depend on the processing

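The 9 platelet genes were called lower under every alternative that tested them, and at a minimum of 10 counts in every library Gp1ba and Gp6 were not tested, which left 7 of 7. The alternatives were RLE size factors, library totals only, DESeq2, no filter beyond 1 count, 10 counts in every library, the replicate block, each mouse left out and, for the ratios, prior counts of 0.5 and 5. Library totals alone gave 1309 genes called higher and 4 endothelial genes lower. The minimum of 10 counts in every library left 6 erythroid and 4 B-lineage genes called lower, since fewer genes were tested. B-lineage genes called higher numbered 1 with RLE size factors, with DESeq2 and with that minimum. Leaving out 1 mouse gave 1 to 4 other platelet genes higher, 0 to 1 B-lineage genes higher, 1 to 3 osteoblast genes lower and 3 to 7 muscle genes higher. It moved Fcgr2b between 0.126 and 0.459, and without WT replicate 2 Fcgr2b was higher (adjusted p = 0.0131 from edgeR).

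Of the genes that did not pass, Pear1, Selp, Prkcq, Mef2c, Kit and Col1a1 changed sign around 0 under some alternatives. Pear1 was at 0.0135 with RLE size factors, 0.0107 with DESeq2, 0.00683 with 10 counts in every library and between -0.130 and 0.0663 with 1 mouse left out. Library totals gave -0.0439 for Prkcq, -0.0617 for Mef2c and -0.0228 for Col1a1. With 1 mouse left out Selp lay between -0.102 and 0.0459, Prkcq between -0.265 and 0.154, Mef2c between -0.0728 and 0.115, Kit between -0.107 and 0.0201 and Col1a1 between -0.0226 and 0.190. The causes were not tested.

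No pairing by replicate number was seen, since deviations of same-numbered mice correlated at -0.114 to 0.0969, against -0.206 to 0.153 for other pairs. Whether the mice were matched in some other way cannot be read from these correlations. In the replicate block, 8 muscle genes were higher, Prkcq was at -0.00907 and Col1a1 at -0.0111, and Fli1, Thpo, Ano2 and Rdh13 did not pass (adjusted p = 0.0740, 0.0700, 0.0924 and 0.0792 from edgeR), while Myh1 did (adjusted p = 0.00933). With 4 pairs the smallest p is 0.125 before adjustment, so no ratio could pass (smallest adjusted p = 0.179, exact permutation), and the paired differences were 0.547 for Pf4/Itga2b, -1.275 for Gp1ba/Gp9, 0.852 for Gp1bb/Gp9, -0.961 for Gp5/Gp9, -1.21 for Gp6/Gp9, -0.537 for Treml1/Gp9 and -0.990 for Vwf/Cdh5. With 1 mouse left out, Gp1ba/Gp9 lay between -1.446 and -1.122, Gp1bb/Gp9 lay between 0.7559 and 1.212, Gp5/Gp9 lay between -1.095 and -0.6496, Gp6/Gp9 lay between -1.419 and -0.8786, Itgb3/Itga2b lay between 0.1638 and 0.5699, Pf4/Itga2b lay between 0.4559 and 0.6827, Ppbp/Pf4 lay between -0.4875 and -0.1961, Treml1/Gp9 lay between -0.5371 and -0.4288, Vwf/Cdh5 lay between -1.044 and -0.9904 and Vwf/Itga2b lay between 0.5268 and 0.9848. With 3 mice labelled FcgRIIB-/- the smallest p is 0.0357 before adjustment. Groups without overlap stay so when a mouse is left out, so the 6 ratios without overlap had to stay at this limit. Their adjusted p was 0.0595 without replicate 1, 2 or 3 (exact permutation). Without replicate 4 the limit was reached by 9 ratios, all but Ppbp/Pf4 (adjusted p = 0.0397, exact permutation). Ppbp/Pf4 passed without WT replicate 3 (adjusted p = 0.0357, exact permutation).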
